A study of Mus musculus with 4 samples.

Results

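The question here was whether DNMT1 siRNA and osteoblast (OB) induction changed DNA methylation additively in C3H10T1/2, a cell line from C3H mouse embryos that serves as a model of mesenchymal stem cells. Bisulfite sequencing had been read in 4 libraries, 1 per condition. Cells received NC, a non-targeting siRNA, or DNMT1 siRNA (siDNMT1) for 48 h. They were uninduced, or induced for 3 days in medium with ascorbic acid, β-glycerophosphate and dexamethasone. The conditions are therefore NC uninduced (control), siDNMT1 uninduced, NC OB and siDNMT1 OB, and the line and the transfection are common to all of them. For each region the interaction was computed as the siDNMT1 OB level minus the NC OB level, minus the difference between the siDNMT1 and control levels of uninduced cells. A level is the fraction of CpG cytosines read as methylated, from 0 to 1. An interaction of 0 means that the difference between siDNMT1 and NC was equal in OB and uninduced cells, and a negative one that siDNMT1 lowered the level more, or raised it less, in OB cells. Of 164078 regions listed in any library, 151644 were listed in all 4 and entered, and 131492 of them lay outside promoters. With 1 library per condition, no value below has a replicate check, no test of a region was possible, and differences between conditions cannot be told apart from differences between libraries. The labels give no time in culture for uninduced cells, so induction cannot be told apart from time since transfection either.

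DNMT1 copies the methylation of the parental strand onto new DNA after replication, so that loss of the enzyme dilutes methylation as cells divide. Enzymes of the TET family oxidise methylated cytosine, and DNMT3A and DNMT3B add methylation anew. CpG islands, stretches dense in CpG that often hold a transcription start, are mostly unmethylated in somatic cells, while gene bodies, repeats and the DNA between genes are mostly methylated, and shores are the flanks of islands. The files give no expression values, so neither the knockdown of DNMT1 nor the identity of the cells as osteoblasts was checked with markers. Each library lists 155398 to 159705 regions. The fewest were in the siDNMT1 OB library, which was alone in missing 2518 regions, against 442 to 1376 for each other library. Read counts are not given, so depth is unknown in every library, and its part in the interaction was not tested.

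The largest positive interactions of CpG islands outside UTRs are shown first with their sequences. They show how a departure from additivity looks in single islands and how many CpGs the sequence holds. Which of those CpGs were read is not known. The letters were taken from the plus strand of GRCm38, 5′ to 3′, with every CpG in capitals. The first island lies in coding sequence of Arhgef19, which encodes a guanine nucleotide exchange factor, at chr4:141247388-141247681, and has 21 CpGs in 294 bases. The second, at chr1:64994406-64994627, overlaps the exon of Rpl10a-ps1, a processed pseudogene of a ribosomal protein, and has 21 CpGs in 222 bases. The third overlaps the exon of the processed pseudogene Gm8399 at chr13:81064634-81064852 and has 26 CpGs in 219 bases. For contrast, the fourth line gives the first 222 bases of the shore that follows the Rpl10a-ps1 island, a stretch with 0 CpGs.
Arhgef19 island: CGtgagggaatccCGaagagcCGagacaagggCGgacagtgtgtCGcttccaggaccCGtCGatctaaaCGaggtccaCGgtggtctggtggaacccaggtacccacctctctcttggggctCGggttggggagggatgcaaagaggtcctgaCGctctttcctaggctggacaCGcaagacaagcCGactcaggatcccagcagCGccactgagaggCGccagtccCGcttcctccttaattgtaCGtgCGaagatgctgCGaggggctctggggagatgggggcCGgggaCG
Rpl10a-ps1 island: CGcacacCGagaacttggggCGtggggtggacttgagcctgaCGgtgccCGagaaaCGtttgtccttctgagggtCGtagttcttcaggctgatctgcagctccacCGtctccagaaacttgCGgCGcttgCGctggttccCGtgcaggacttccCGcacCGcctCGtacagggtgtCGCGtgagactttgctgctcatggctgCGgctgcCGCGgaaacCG
Gm8399 island: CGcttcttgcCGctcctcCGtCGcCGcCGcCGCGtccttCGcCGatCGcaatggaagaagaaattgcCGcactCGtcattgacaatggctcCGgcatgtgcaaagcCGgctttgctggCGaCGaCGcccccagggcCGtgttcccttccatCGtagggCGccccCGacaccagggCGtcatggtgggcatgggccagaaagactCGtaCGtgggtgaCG
Rpl10a-ps1 shore: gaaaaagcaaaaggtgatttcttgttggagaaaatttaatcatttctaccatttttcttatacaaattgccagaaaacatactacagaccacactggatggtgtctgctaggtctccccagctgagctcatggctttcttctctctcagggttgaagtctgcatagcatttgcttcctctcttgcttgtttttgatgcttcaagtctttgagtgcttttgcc

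In the Arhgef19 island the level was 0.808 in control, 0.686 in siDNMT1, 0.583 in NC OB and 0.929 in siDNMT1 OB cells, an interaction of 0.467. The Rpl10a-ps1 island had levels of 0.32 in control, 0.429 in siDNMT1, 0.462 in NC OB and 1 in siDNMT1 OB cells (interaction 0.430). In the Gm8399 island they were 0.758, 0.619, 0.556 and 0.831 in the same order (interaction 0.414). All 3 islands had their highest level in the siDNMT1 OB library, and in Arhgef19 and Gm8399 siDNMT1 went with a lower level before induction and a higher one after it. The flanking shores did not share the size of these interactions. Those of the Arhgef19 island had interactions of -0.0123 and -0.0413, the shore after the Rpl10a-ps1 island one of -0.0689 and the shore after the Gm8399 island one of -0.000292, which turned positive after centring or quantile normalization of the libraries. Reads of processed pseudogenes can come from near-identical copies elsewhere in the genome, and their part in these levels was not tested.

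Across classes, the median interaction was negative in all 8 and small. It was furthest from 0 in 3′ UTRs, at -0.0130 (95% interval from order statistics -0.0140 to -0.0119, n = 4354), and in repeats, at -0.0108 (-0.0112 to -0.0103, n = 44955). Introns had a median of -0.00770 (n = 19757), shores -0.00622 (n = 16439), exons -0.00458 (n = 20401) and promoters -0.00292 (n = 20152). It was nearest to 0 in CpG islands, at -0.00171 (n = 14095), and in 5′ UTRs, at -0.00155 (n = 11491), the classes with median levels of 0.0300 and 0.0273. The share of regions with a negative value ran from 56.2% in 5′ UTRs to 67.8% in 3′ UTRs, and over all regions it was 61.1%. In these intervals each region counts as an independent value, and differences between cultures are not part of them. A shift shared by whole libraries would also give negative medians, and its part was not tested. When each library was centred on the median of its class, the medians turned positive in 6 classes and lay between -0.000951 in 5′ UTRs and 0.00571 in exons, and after quantile normalization, which gives the 4 libraries 1 distribution per class, all lay between -0.000890 and 0.000769. Both steps remove such a shift by construction, so the negative medians cannot be told apart from any property that differs between whole libraries.

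Levels differ between classes, so the classes were also compared among regions with a mean level of 0.5 to 0.9 over the 4 libraries. There siDNMT1 went with a lower median level in both states and in every class. The median difference in uninduced cells lay between -0.00870 in 3′ UTRs and -0.00620 in 5′ UTRs, and in OB cells between -0.0232 in 3′ UTRs and -0.0140 in CpG islands. The siDNMT1 level was also taken as a share of the NC level in each region. The class medians of this share were 98.8% to 99.2% before induction and 96.7% to 98.1% after it. The median interaction at these levels was -0.0148 in 3′ UTRs (95% interval -0.0160 to -0.0139), -0.0140 in shores, -0.0138 in introns, -0.0130 in promoters, -0.0122 in exons, -0.0120 in repeats, -0.00985 in 5′ UTRs and -0.00772 in CpG islands (-0.00867 to -0.00665). Methylated CpG islands had the median nearest to 0 at like levels. Their interval overlapped that of 5′ UTRs (-0.0127 to -0.00746) and not that of 3′ UTRs. The median difference with induction varied between classes. In NC cells it was -0.000571 in 3′ UTRs, -0.00126 in promoters, -0.00220 in introns, -0.00321 in exons, -0.00478 in shores, -0.0119 in CpG islands and -0.0147 in 5′ UTRs, and in repeats it was 0.00494. In siDNMT1 cells it was more negative in each class, at -0.0149, -0.0150, -0.0159, -0.0155, -0.0182, -0.0215, -0.0224 and -0.00609 in the same order.

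**Figure D1:**
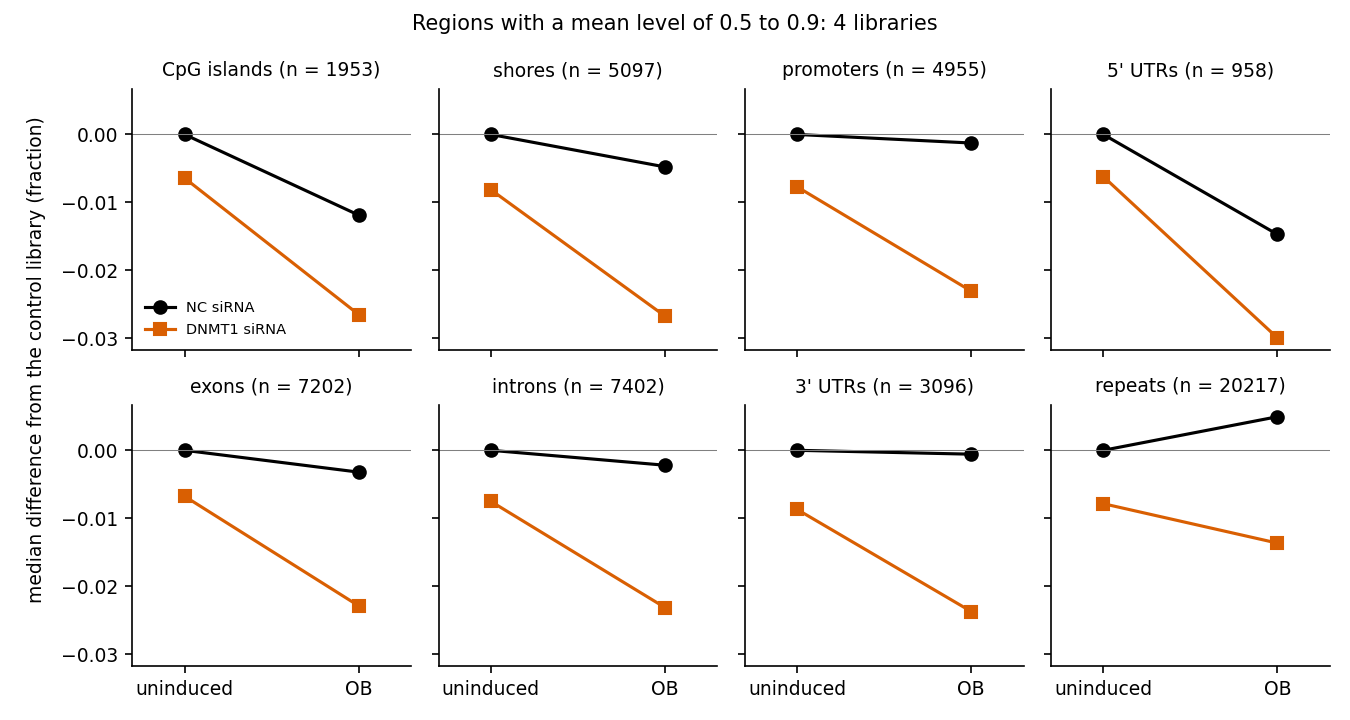
Median difference from the control library (fraction, vertical axis) in uninduced and OB cells (horizontal axis) for NC (black circles) and siDNMT1 (orange squares), for regions with a mean level of 0.5 to 0.9 in each of 8 classes. The siDNMT1 line lies below the NC line in every panel and further below it in OB cells, and additive changes would give parallel lines.

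The median interaction depended on the level. Over all classes it was -0.000903 at mean levels up to 0.05 (n = 34256), -0.00271 from 0.05 to 0.1, -0.00686 from 0.1 to 0.3, -0.00994 from 0.3 to 0.5, -0.0130 from 0.5 to 0.75 (n = 39104), -0.0117 from 0.75 to 0.9 and -0.0111 above 0.9 (n = 1813). The medians of all 56 combinations of class and level were negative, and in 50 of them the 95% interval lay below 0. The 6 others were 3′ UTRs up to 0.05, from 0.05 to 0.1 and above 0.9, introns from 0.05 to 0.1, promoters above 0.9 and repeats up to 0.05. CpG islands levelled off at about the values of the 0.3 to 0.5 range, with medians of -0.00743, -0.00758 and -0.00779 in the 3 ranges from 0.3 to 0.9, while shores reached -0.0144 and 3′ UTRs -0.0156 between 0.5 and 0.75.

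**Figure D2:**
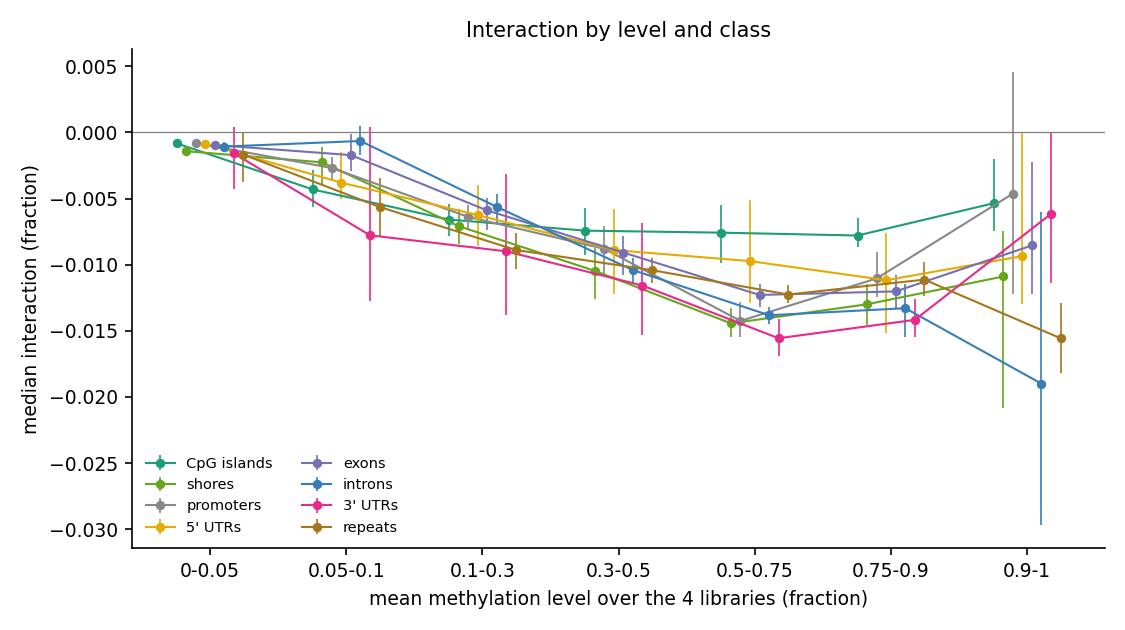
Median interaction (fraction, vertical axis) by mean methylation level over the 4 libraries (horizontal axis, 7 ranges) and class (colours), with 95% intervals from order statistics as bars. All medians lie below 0, those at levels up to 0.05 lie nearest to 0 in every class but introns, and CpG islands stay above the other classes between 0.5 and 0.9.

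Density of CpG separated the methylated regions further. CpGs were counted in the GRCm38 sequence of islands and shores with a mean level of 0.5 to 0.9. Shores with less than 1 CpG per 100 bases had a median interaction of -0.0160 (n = 266), those with 1 to 2 had -0.0150 (n = 2868), those with 2 to 3 had -0.0139 (n = 1265), those with 3 to 5 had -0.0100 (n = 567) and those with 5 to 8 had -0.00763 (n = 125, 95% interval -0.0138 to -0.00201). Islands with 5 to 8 CpGs per 100 bases had -0.00921 (n = 618) and denser islands -0.00692 (n = 1333). At 5 to 8 CpGs per 100 bases the intervals of shores and islands overlapped. Methylated islands with the annotated start of a gene inside, pseudogenes included, had a median of -0.00425 (95% interval -0.00684 to -0.00187, n = 501). Islands elsewhere in genes had -0.00851 (-0.00993 to -0.00749, n = 1277) and those between genes -0.00873 (-0.0126 to -0.00411, n = 173).

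Gene class and gene length made little difference at these levels. Median interactions of exons ran from -0.0143 in lincRNA genes (n = 503) to -0.0112 in processed pseudogenes (n = 738), with -0.0123 in protein-coding genes (n = 5016). Introns ran from -0.0150 in antisense genes (n = 608) to -0.0128 in lincRNA genes (n = 1026). Introns of the shortest genes, up to 9.492 kb (n = 1480), had a median of -0.0147 and those of the longest genes, from 83.742 kb (n = 1480), one of -0.0124. The 95% intervals of those length groups overlapped, at -0.0168 to -0.0128 and -0.0134 to -0.0112.

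Single regions were counted as lower or higher from an interaction of 0.2 in size. Over all classes, 1460 of 151644 regions (0.963%) were lower and 1199 (0.791%) higher. Repeats made up most of them, with 955 lower (2.12% of repeats) and 805 higher (1.79%). CpG islands had the fewest, with 19 lower (0.135%) and 25 higher (0.177%). Of shores, 107 were lower (0.651%) and 54 higher (0.328%), and of 3′ UTRs 31 were lower (0.712%) and 40 higher (0.919%). There were 104 exons lower (0.510%) and 91 higher (0.446%), 84 introns lower (0.425%) and 66 higher (0.334%), 48 5′ UTRs lower (0.418%) and 37 higher (0.322%), and 112 promoters lower (0.556%) and 81 higher (0.402%). The share of lower among those counted was 66.5% in shores (95% Wilson interval 58.9% to 73.3%), 58.0% in promoters (51.0% to 64.8%) and 54.3% in repeats (51.9% to 56.6%), and in the other classes the interval included an even split. Of the 1760 repeats counted in either direction, 423 had a level of exactly 0 or 1 in some library, against 1419 of all 44955 repeats. Without regions of such levels there were 1138 lower and 940 higher regions over all classes. After centring there were 1295 lower and 1333 higher regions and after quantile normalization 1315 and 1318. The share of lower in repeats then became 48.3% and 49.7%, that in promoters 52.7% and 51.9%, and that in shores 61.5% and 59.6%.

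These counts were set against contrasts that weight the same 4 libraries equally. The siRNA contrast, both siDNMT1 libraries minus both NC libraries, reached 0.2 in 1649 regions downwards (1.09%) and 1100 upwards (0.725%). The induction contrast, both OB libraries minus both uninduced ones, did so in 2467 regions downwards (1.63%) and 1418 upwards (0.935%). The SD of the interaction over regions was 0.0282 in CpG islands, 0.0499 in exons and 0.0902 in repeats, that of the siRNA contrast was 0.0296, 0.0508 and 0.0920, and that of the induction contrast 0.0465, 0.0669 and 0.1. The interaction thus spread less than the induction contrast in every class and less than the siRNA contrast in all but 5′ UTRs, where the SDs were 0.0443 and 0.0435. Across regions, the difference between siDNMT1 and NC in OB cells was almost unrelated to that in uninduced cells, with Pearson's r between -0.0171 in 5′ UTRs and 0.0714 in promoters. Such r values describe regions that share their libraries and are not evidence from replicates.

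**Figure D3:**
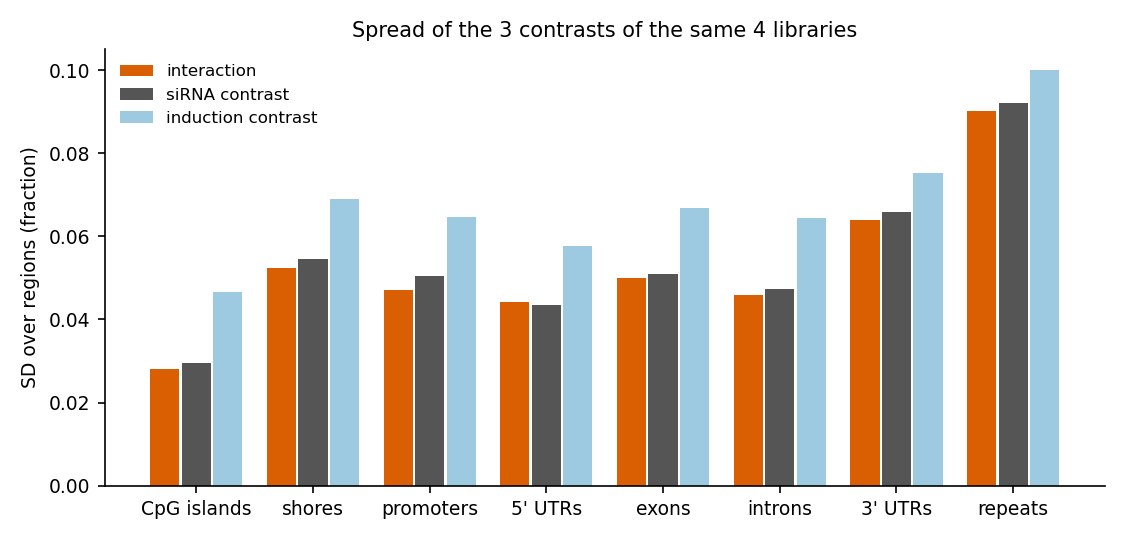
SD over regions (fraction, vertical axis) of the interaction (orange), the siRNA contrast (dark grey) and the induction contrast (light blue) in the 8 classes. The interaction bar is about as tall as that of the siRNA contrast in every class, from 0.0282 against 0.0296 in CpG islands to 0.0902 against 0.0920 in repeats.

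Of the 1460 lower regions, 1121 (76.8%) had a higher level with siDNMT1 in uninduced cells and a lower one in OB cells, and of the 1199 higher regions, 930 (77.6%) had the opposite pair of signs. Regions counted for a large difference between 2 nearly unrelated differences will mostly have opposite signs, so nothing is read from these shares. In 585 of the lower and 424 of the higher regions the siDNMT1 OB library was furthest from the other 3, more often than any other library (control 202 and 226, siDNMT1 335 and 303, NC OB 338 and 246). Levels of exactly 0 or 1 were also most frequent in the siDNMT1 OB library, at 1.04% of regions, against 0.519% to 0.733% in the others. Large interactions were also less frequent in regions with more CpGs. Of CpG islands with 10 to 19 CpGs 1.09% passed 0.2 in either direction, with 20 to 29 1.13%, with 30 to 49 0.384%, with 50 to 79 0.161% and with 80 or more 0.0392%. In shores the share went from 2.04% at 10 to 19 CpGs to 0.287% at 80 or more. The median level of islands fell over the same ranges, from 0.557 at 10 to 19 CpGs to 0.0213 at 80 or more. At mean levels up to 0.05, 0 of 7898 islands were lower and 0 higher. In shores the median level was 0.142 at 10 to 19 CpGs and 0.206 at 80 or more. The number of reads behind these levels is unknown. The parts of level and of read number in these trends were not tested.

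By position, the median interaction of islands, shores and gene entries was negative on all 20 chromosomes. On the autosomes together it was -0.00379 (n = 103669), and on chromosome X -0.00860 (95% interval -0.0104 to -0.00676, n = 2938), where the median level was 0.407 against 0.236. Among regions of 0.5 to 0.9 the order was turned, with -0.00825 on X (n = 915) and -0.0130 on the autosomes (n = 29722). Chromosome X also held more large values in both directions: 44 regions were lower and 42 higher, together 2.93% against 0.783% of autosomal regions. The siRNA contrast passed 0.2 in 3.00% of X regions and 0.792% of autosomal ones, and the induction contrast in 2.86% and 1.64%. A wider spread on X was therefore a property of all 3 contrasts. Of repeats the files give consensus intervals without a place in the genome, and copies of a repeat may share an entry. All 17 repeat families with at least 100 entries had a negative median, from -0.0150 in SINE/MIR (n = 1549) to -0.00645 in LINE/CR1 (n = 115), whose 95% interval of -0.0175 to 0.00389 included 0. LINE/L1, the largest family, had -0.00970 (n = 20733), LTR/ERVK, which holds retroviruses still able to move in mice, -0.0100 (n = 5388), and SINE/B2 -0.0139 (n = 1482). After centring of the libraries 1 chromosome and 5 families still had a negative median, and after quantile normalization 4 and 11.

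**Figure D4:**
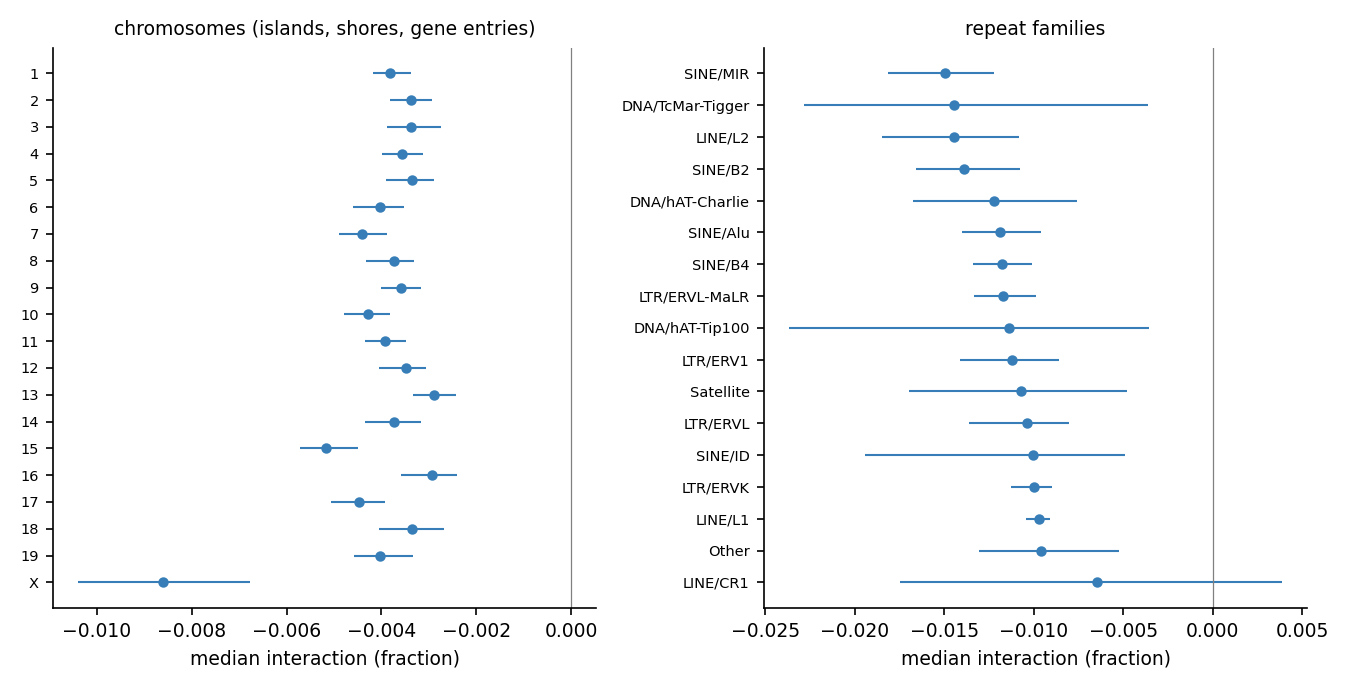
Median interaction (fraction, horizontal axes) with 95% intervals from order statistics, by chromosome for islands, shores and gene entries (left) and by repeat family with at least 100 entries (right). Every point lies below 0, and the interval of LINE/CR1 reaches above it.

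Gene bodies were described where the interactions of a gene's exons and introns had the same direction, which does not require the same pattern of levels. Exon and intron entries both existed for 15709 genes. Both interactions were negative in 41.6% and both positive in 15.8%, and Pearson's r across genes was 0.0504. Both were at least 0.1 lower in 22 genes (0.140%) and at least 0.1 higher in 10 (0.0637%). In 74 genes (0.471%) the exon and intron entries had the same levels in all 4 libraries to within 1e-09, so that both hold the same cytosines. Without them 20 and 9 genes remained. Il1rl2, Gm15222 and Gm45843 are such genes among those named here.

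Among the genes with lower bodies, Ces1g, a carboxylesterase gene at chr8:93302369-93337308, had intron levels of 0.631 in control, 0.559 in siDNMT1, 0.555 in NC OB and 0.314 in siDNMT1 OB cells (interaction -0.169), and its exons had -0.232. The exon levels were 0.4, 0.468, 0.564 and 0.4 in the same order, so the NC OB library stood out there and the combination equalled control. Its introns were lowest by far with both treatments. Those of Gmfg, which encodes an actin regulator (chr7:28437447-28448233), had 0.329, 0.349, 0.395 and 0.25 in the same order (interaction -0.166) and were also lowest with both. Il1rl2, a receptor gene of the interleukin-1 family at chr1:40324610-40367562, had 0.738, 0.744, 0.815 and 0.646 in its shared exon and intron entry (interaction -0.174). Cdk16, a cyclin-dependent kinase gene on chromosome X (20687954 to 20699880), departed in the control library instead: its introns had 0.401 in control, 0.686 in siDNMT1, 0.661 in NC OB and 0.612 in siDNMT1 OB cells (interaction -0.335). Either treatment alone thus went with a higher level there, and both together with no further increase. The same was true of its 5′ UTR (-0.330), which shares cytosines with its introns and with its CpG island, and its exons had -0.166. Of the other lower genes, the lincRNA genes Gm12326 and 4930555O08Rik had exon interactions of -0.338 and -0.155 and the antisense gene Gm15222 -0.151. Exons of Gm10719 (chr9:3017408-3021593) had -0.158 and its introns -0.428. The exons stood out in NC OB cells (0.848) and the introns in siDNMT1 OB cells (0.176).

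Among the genes with higher bodies, Kcnj5, which encodes an inward rectifier potassium channel (chr9:32314707-32344350), had intron levels of 0.393 in control, 0.369 in siDNMT1, 0.373 in NC OB and 0.564 in siDNMT1 OB cells (interaction 0.215), and its exons had 0.120. The first 3 libraries lay close together and the fourth stood apart. Exons of Irf3, a transcription factor of the interferon response at chr7:44997648-45002848, had 0.178, 0.163, 0.163 and 0.279 in the same order (interaction 0.131) and its introns an interaction of 0.150, whereas its 5′ UTR stayed between 0.00887 and 0.0126 in all libraries. Nudt11, a phosphohydrolase gene on chromosome X (6047453 to 6055110), had exon levels of 0.394, 0.438, 0.451 and 0.673 (interaction 0.177), and its introns and 3′ UTR shared an interaction of 0.447. In Adad1, a testis-expressed gene of the adenosine deaminase domain family (chr3:37063527-37121930), it was the control level that stood highest. Its exons had 0.801 in control, 0.721 in siDNMT1, 0.708 in NC OB and 0.758 in siDNMT1 OB cells (interaction 0.129), so that each treatment alone went with a lower level and the combination did not add to it. Gm10717 had an exon interaction of 0.455, Gatb 0.143, the lincRNA gene Gm45843 0.132 and the antisense gene Gm11998 0.127. Gm10717 (chr9:3025417-3033289) lies close to Gm10719, which went the other way.

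The lower CpG islands overlapped UTRs, so their sequences are not shown. The island with the most negative interaction lies in the 3′ end of Hk1, the gene of the glycolytic enzyme hexokinase, at chr10:62269717-62269981. Its level was 0.5 in control, 0.794 in siDNMT1, 0.7 in NC OB and 0.4 in siDNMT1 OB cells (interaction -0.594), so that each treatment alone went with a higher level and both together with the lowest. The shore beside it had an interaction of -0.0117 at levels of 0.884 to 0.907. An island of Rgma, a co-receptor gene of BMP signalling, at chr7:73409278-73409531 had 0.829 in control, 0.829 in siDNMT1, 0.857 in NC OB and 0.4 in siDNMT1 OB cells (interaction -0.457). Here 3 libraries were alike and only the one with both treatments was low. In the island of 6330403K07Rik (chr11:71033182-71033484) the levels were 0.0909, 0.243, 0.28 and 0.0435 (interaction -0.389), and its shores had -0.0390 and 0.103. The island of Peg3, an imprinted gene expressed from the paternal allele, spans chr7:6730063-6730398 and had 0.34 in control, 0.514 in siDNMT1, 0.631 in NC OB and 0.486 in siDNMT1 OB cells (interaction -0.319). Its control level was the lowest and its siDNMT1 OB level lay near that with siDNMT1 alone. The island of Cdk16 at chrX:20688267-20688821 had -0.330. Of the remaining higher islands, that of Drd4, a dopamine receptor gene (chr7:141291934-141292381), had 0.48, 0.405, 0.2 and 0.473 in the same order (interaction 0.348), and that of Fam221a (chr6:49367694-49368094) had 0.263, 0.132, 0.135 and 0.316 (interaction 0.312). Their shores had 0.0294 and 0.0378.

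Among shores, the interaction furthest from 0 belonged to chr1:93799690-93801689, which overlaps exons of Dtymk, the gene of thymidylate kinase. It had 0.00714 in control, 0.61 in siDNMT1, 0.464 in NC OB and 0.0116 in siDNMT1 OB cells, an interaction of -1.06. Each single treatment went with a level near the middle of the scale, and neither the control nor the combination did. A shore between genes at chrX:77431587-77433586 had 0.133, 0.7, 0.235 and 0.0476 (-0.754), and one at chr4:86612080-86614080 had 0.201, 0.8, 0.150 and 0.126 (-0.623), both high with siDNMT1 in uninduced cells alone. In the opposite direction, the shore at chr13:83745335-83747335, inside the gene C130071C03Rik, had 0.714 in control, 0.222 in siDNMT1, 0.05 in NC OB and 0.340 in siDNMT1 OB cells (0.782). The shore at chr14:55885301-55887301 in Khnyn had an interaction of 0.448, and so did one between genes at chr1:171066086-171068086.

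The 5′ UTR of Edar, the ectodysplasin receptor gene (chr10:58600789-58675654), had 0.259 in control, 0.333 in siDNMT1, 0.583 in NC OB and 0.111 in siDNMT1 OB cells (interaction -0.546). It was highest after induction with NC siRNA and lowest after induction with siDNMT1. For Gpat4, an acyltransferase gene of glycerolipid synthesis, the levels were 0.276, 0.465, 0.558 and 0.318 (-0.430). On the higher side, the 5′ UTR of Msgn1, a transcription factor of the presomitic mesoderm (chr12:11208360-11208972), had 0.484 in control, 0.321 in siDNMT1, 0.36 in NC OB and 0.857 in siDNMT1 OB cells (0.660). Ankrd9 had 0.365, 0.186, 0.0184 and 0.410 (0.571) and Cnnm1 0.476, 0.143, 0.467 and 0.625 (0.492).

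In 3′ UTRs, Hk1 repeated the values of its island (-0.591), since both hold the same stretch. Cox19, an assembly factor gene of cytochrome c oxidase (chr5:139336189-139351418), had 0.424 in control, 0.585 in siDNMT1, 0.543 in NC OB and 0.143 in siDNMT1 OB cells (-0.561). Ttll11, a tubulin ligase gene, had 0.463, 0.8, 0.454 and 0.330 (-0.461). The combination was lowest in both genes, and in Ttll11 the uninduced siDNMT1 library stood highest by far. Alkbh1, a gene of a dioxygenase that demethylates nucleic acids (chr12:87425840-87444017), had 0.857 in control, 0.524 in siDNMT1, 0.25 in NC OB and 0.625 in siDNMT1 OB cells (0.708). Mmaa, a gene of cobalamin metabolism, had 0.342, 0.171, 0.188 and 0.571 (0.555) and Cttn, the gene of the actin-binding protein cortactin, 0.485, 0.5, 0.308 and 0.833 (0.511). The last 2 were highest with both treatments.

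**Figure D5:**
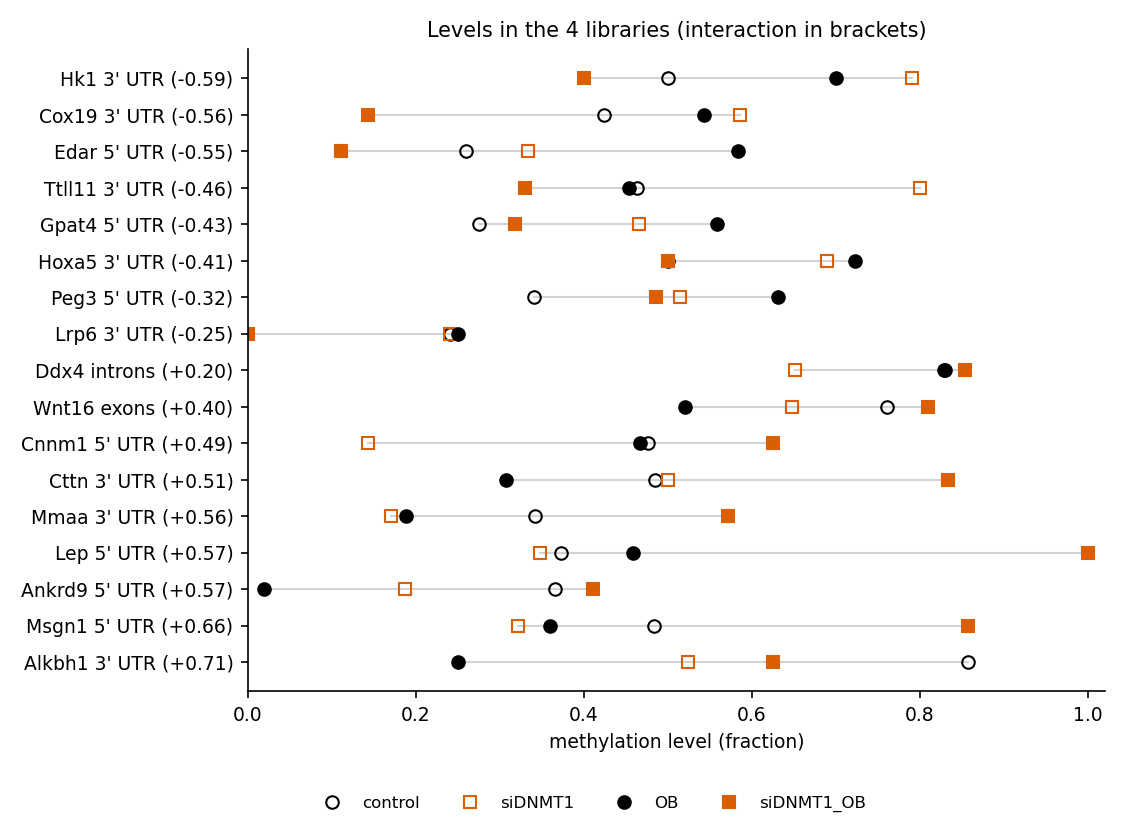
Methylation level (fraction, horizontal axis) in the 4 libraries for the UTR entries and gene list entries named in the text, sorted by interaction (in brackets): control (open circle), siDNMT1 (open square), NC OB (filled circle) and siDNMT1 OB (filled square). The siDNMT1 OB level is the lowest in Hk1, Cox19 and Edar and the highest in Lep, Msgn1 and Cttn, and the control level is the lowest in Gpat4 and Peg3.

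Repeat entries gave the widest swings. The number of reads behind each entry is unknown, and its part in these swings was not tested. The entry of L1MdMus_I, a LINE-1 subfamily, had 0.125 in control, 0.571 in siDNMT1, 0.9 in NC OB and 0.438 in siDNMT1 OB cells (-0.909). The ORR1E entry, from the MaLR long terminal repeats, had 0.324, 0.579, 0.645 and 0.0769 (-0.824) and that of L1MdA_VI 0.5, 0.733, 0.7 and 0.143 (-0.790). In all 3 either treatment alone went with a higher level than in control cells. The B1_Mus1 entry, a SINE, had 0.857 in control, 0.143 in siDNMT1, 0.4 in NC OB and 0.833 in siDNMT1 OB cells (1.15), so that it was low with either treatment alone and near the control level with both. Those of L1MdF_III and L1MdA_VII had the same shape, with 0.85, 0.429, 0.346 and 0.731 (0.806) and with 0.571, 0.182, 0.2 and 0.6 (0.790).

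Genes of the cell fates open to C3H10T1/2 cells were set beside all gene entries. Their lists are too short for a count of 0 or 1 to set them apart. Of all 56003 gene entries outside promoters, 267 (0.477%) were lower and 234 (0.418%) higher, and their median interaction was -0.00490 with 62.0% negative. Among 23 osteoblast genes, 21 had entries, and of their 55 entries 0 were lower and 0 higher, with values from -0.0763 to 0.0638 and a median of -0.00211. Of 37 entries of 13 chondrocyte genes (from -0.127 to 0.0503, median -0.0109) and of 30 entries of the 9 genes of DNMT, TET and related enzymes (from -0.0703 to 0.188, median -0.0104), 0 passed 0.2 as well. Among 28 entries of 11 adipocyte genes (median -0.00505) 1 was higher, the 5′ UTR of Lep, the gene of the fat hormone leptin (chr6:29060220-29073877). Lep had 0.373 in control, 0.348 in siDNMT1, 0.458 in NC OB and 1 in siDNMT1 OB cells (0.567).

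Of 142 entries of 46 Wnt, BMP, hedgehog and Notch genes (median -0.00359), 1 was lower and 1 higher. The 3′ UTR of Lrp6, a Wnt co-receptor gene, had 0.24 in control, 0.24 in siDNMT1, 0.25 in NC OB and 0 in siDNMT1 OB cells (-0.25). Exons of Wnt16, a ligand gene of the same pathway (chr6:22288227-22298522), had 0.760, 0.647, 0.52 and 0.810 (0.403). Of 111 entries of 39 Hox genes (median -0.0103), 1 was lower, the 3′ UTR of Hoxa5, with 0.5 in control, 0.690 in siDNMT1, 0.722 in NC OB and 0.5 in siDNMT1 OB cells (-0.412). Each treatment alone went with a higher Hoxa5 level and both together with the control level. Of 80 entries of 31 imprinted genes (median -0.0137, 76.2% negative), 1 was lower, the 5′ UTR of Peg3, which holds the same stretch as its island. Of 44 entries of 16 germline genes (median -0.00470), 1 was higher, introns of Ddx4, an RNA helicase gene of germ cells, with 0.830, 0.651, 0.829 and 0.853 (0.204). In Ddx4 the uninduced siDNMT1 library alone was low. With at most 1 entry per direction, no list is set apart from the background shares.

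The 13 genes that the study names for methylation or differentiation were chosen by its authors on these samples. Of their 39 entries outside promoters 0 passed 0.2, the median was -0.0103 and 79.5% were negative. The entry furthest from 0 was the exon entry of H19, an imprinted noncoding RNA gene, with 0.516 in control, 0.55 in siDNMT1, 0.599 in NC OB and 0.528 in siDNMT1 OB cells (-0.106). Exons of Rora, a nuclear receptor gene, had 0.228, 0.167, 0.192 and 0.194 (0.0632), the largest positive value. Introns of Grem1, a BMP antagonist gene, had 0.409, 0.480, 0.414 and 0.432 (-0.0539). Introns of Npnt, which encodes the matrix protein nephronectin, had 0.169, 0.183, 0.159 and 0.123 (-0.0505), and those of Itga8, an integrin subunit gene, 0.549, 0.565, 0.557 and 0.527 (-0.0467). In both, the level was lowest with both treatments. Introns of Dnmt3a, a de novo methyltransferase gene, had 0.436, 0.411, 0.402 and 0.358 (-0.0199). Introns of Fgfr2, an FGF receptor gene, had -0.0145, of Sox6 -0.0151 and of the hedgehog ligand gene Ihh -0.0130, and exons of these genes had -0.00926, -0.000597 and -0.00300, which turned positive after centring or quantile normalization of the libraries. Exons of Sox9, a chondrocyte transcription factor gene, had 0.261, 0.250, 0.245 and 0.248 (0.0139). Entries of Hey1, a Notch target gene, lay between -0.0157 and -0.000504, and its exons, promoter and 5′ UTR turned positive after centring. In promoters, the interaction was -0.0247 in H19, -0.0358 in Grem1, -0.0285 in Dnmt3a, -0.0245 in Fgfr2, -0.00790 in Rora and 0.00285 in Itga8, and the largest positive value was 0.0271 in Sox6. Hdac9 and Wnt3a, which encode a histone deacetylase and a Wnt ligand, had promoter values of -0.0131 and -0.0121.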

How the data were processed

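Reduced representation bisulfite sequencing (so labelled, although the protocol describes sonication and names no restriction enzyme) was analysed in 4 libraries of C3H10T1/2 cells. Groups came from the sample labels. Per the submitters' processing notes and the study's methods, reads were filtered with Trimmomatic (version 0.36) and aligned to mm10 with Bismark (version 0.16.3). The authors deposited a methylation level for each region of 8 classes, a fraction of its CpG cytosines between 0 and 1. A promoter is the 2 kb before a transcription start. The coverage minimum, the weighting of cytosines and bisulfite conversion per library are not given in the sources used here. DMRs, which the study called with DSS, were not analysed here.

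The interaction was computed for IDs and classes listed in all 4 libraries, without normalization. Symbols and gene positions were taken from GENCODE vM21 (27836 of 27858 gene IDs matched), and sequence from GRCm38. Island and shore IDs were read as starts counted from 0 and are printed counted from 1. Medians have 95% intervals from order statistics and shares 95% Wilson intervals. No p-values were computed. Named were the first 8 genes per direction whose exons and introns both passed 0.1, ranked by the smaller value, the first 5 islands per direction with their shores, the first 3 shores, 5′ UTRs, 3′ UTRs and repeats per direction without a level of 0 or 1, genes the study names, and members of 9 gene lists that passed 0.2. One entry that met this rule is not reported here. Members and lists were chosen with earlier results of these data known. Alternatives covered the threshold, centring, quantile normalization, autosomes, levels of 0 or 1, the level range, the log2 odds scale and the level used for ranges. The functions were tested on simulated data. Python 3.11.15, pandas 2.3.3, numpy 2.4.6, pyfaidx 0.9.0.4 and matplotlib 3.10.9 were used.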

Additional observations from a re-analysis of the deposited data

Results flagged for a closer look

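The regions below were singled out from the named regions only. In them siDNMT1 went with a level at least 0.1 higher in one state of the cells and at least 0.1 lower in the other. Most named regions were chosen for a large interaction, which favours opposite signs, so nothing is read from their number. Of all 151644 regions, 409 were higher in uninduced and lower in OB cells by this measure, and 339 were the reverse. The difference between the states was not tested, since each condition has 1 library. Higher in uninduced and lower in OB cells were the shores at chr1:93799690-93801689 (interaction -1.06) and chrX:77431587-77433586 (-0.754) and the repeat entries L1MdMus_I (-0.909), ORR1E (-0.824) and L1MdA_VI (-0.790). The Hk1 island (-0.594) and 3′ UTR (-0.591), the 3′ UTRs of Cox19 (-0.561), Ttll11 (-0.461) and Hoxa5 (-0.412), the 5′ UTR of Gpat4 (-0.430), Gm12326 introns (-0.455), the island of 6330403K07Rik (-0.389) and the island and 5′ UTR of Peg3 (both -0.319) did the same. Lower in uninduced and higher in OB cells were the B1_Mus1 (1.15), L1MdF_III (0.806) and L1MdA_VII (0.790) entries, the shores at chr13:83745335-83747335 (0.782), chr14:55885301-55887301 (0.448) and chr1:171066086-171068086 (0.448), the 3′ UTRs of Alkbh1 (0.708) and Mmaa (0.555), the 5′ UTRs of Msgn1 (0.660), Ankrd9 (0.571) and Cnnm1 (0.492), the islands of Arhgef19 (0.467), Gm8399 (0.414) and Fam221a (0.312), and Wnt16 exons (0.403). Hk1 and Peg3 appear as island and UTR with shared cytosines, so they count once each.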

How the results depend on the processing

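With each library centred on its class median, the median interaction was -0.000218 in CpG islands, 0.00474 in shores, 0.00383 in promoters, -0.000951 in 5′ UTRs, 0.00571 in exons, 0.00191 in introns, 0.00249 in 3′ UTRs and 0.00132 in repeats. After quantile normalization the values were, in this order, 0.000119, 0.000769, 0.000119, 0.000107, 0, 0.000169, -0.000890 and -1.1e-05. Both remove library-wide shifts by construction, and they left 1 and 4 of 20 chromosomes and 5 and 11 of 17 repeat families negative. Of 139 named regions, 139 after centring and 138 after quantile normalization kept their side of 0.2, the exception being the Adad1 5′ UTR at 0.208. The sign changed in 13 after centring and in 10 after quantile normalization, which had interactions of at most 0.0148 and 0.00926 in size before it. The alternatives for chromosomes, families and named regions were chosen after seeing the data. Limiting mean levels to 0.1 to 0.9 gave -0.00731 in CpG islands, -0.0114 in shores, -0.00989 in promoters, -0.00809 in 5′ UTRs, -0.0103 in exons, -0.0113 in introns and -0.0142 in 3′ UTRs, since regions near 0 drop out.

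The share of lower among regions counted was 43.7% in 3′ UTRs and became 60.9% at a threshold of 0.1, 32.1% at 0.3 and 56.1% on the log2 odds scale. In repeats it went from 54.3% to 58.3% at 0.1, 58.2% on the log2 odds scale, 48.3% after centring and 49.7% after quantile normalization. A threshold of 0.1 counted 5679 lower and 3946 higher regions, 0.3 counted 586 and 497, and autosomes alone 460 and 352, because repeats carry no chromosome. At 0.1, single entries were added lower in the chondrocyte (1), germline (1) and study (1) lists, and the Hox and imprinted lists then had 3 lower and 1 higher each, the Wnt, BMP, hedgehog and Notch list 2 higher and the DNMT and TET list 1 higher.

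With ranges set by the control level, the median was -0.00117 up to 0.05, -0.00194 from 0.05 to 0.1, -0.0124 from 0.5 to 0.75, -0.0106 from 0.75 to 0.9 and -0.00823 above 0.9. With ranges set by the mean of the NC OB and siDNMT1 levels it was -0.000641 up to 0.05, -0.00603 from 0.1 to 0.3, -0.00915 from 0.3 to 0.5, -0.0139 from 0.5 to 0.75, -0.0137 from 0.75 to 0.9 and -0.0159 above 0.9, so the direction held in every range under both. No coverage is given, so a coverage minimum could not be varied, and depth limits every single-region value to an unknown degree. No paired analysis was possible because each condition has 1 library without a replicate number, and no replicate could be left out.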
